A study of Homo sapiens with 12 samples.

Results

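Metallothioneins and their zinc regulators were followed across the treatments of C28/I2 cells, an immortalised line of human chondrocytes. The genes were picked by symbol and are 9 of the 19215 in the deposited table: the metallothioneins MT1X, MT2A, MT1E, MT1F, MT1G, MT1M and MT1A, the transcription factor gene MTF1 and the zinc exporter gene SLC30A1. They were picked with their values in these comparisons known, so the values below describe them and test nothing. All 9 were listed, and 7 had a value in every comparison. MT1M and MT1A were listed without a value in any of the 3 comparisons. MT1X, MT2A, MTF1 and SLC30A1 were measured precisely, meaning that the error implied by the p-value was no more than 0.3 on the log2 scale in each comparison, while MT1G, MT1F and MT1E were not.

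RNA was sequenced from 12 samples in 4 groups of 3, all of this 1 line and all collected after 48 h. The DMSO group had 0.5% DMSO, the SDF1 group 50 nM SDF-1α (the chemokine CXCL12), the SDF1_AS4 group the same SDF-1α dose and also astragaloside IV at 10 µM, a plant saponin found in Astragalus, and the SDF1_SKHS group the same SDF-1α dose and 1% of SKHS, a formula of traditional Chinese medicine. The study asked whether natural products that block the SDF-1α receptor CXCR4 counter its signalling. The labels give no solvent for 3 of the groups, so an effect of DMSO cannot be told apart from one of SDF-1α, nor a carrier from the product it came with.

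Metallothioneins are small proteins rich in cysteine that hold zinc, copper and cadmium. When free zinc rises, the zinc finger protein MTF1 binds metal response elements in the promoters of metallothionein genes and of SLC30A1, which encodes the exporter ZnT1 of the plasma membrane, and switches them on. Oxidants, heavy metals and glucocorticoids also raise metallothionein transcripts. In mouse chondrocytes, zinc that enters through the importer SLC39A8 activates MTF1 and raises enzymes that break down matrix.

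The coding sequences of MT1X, MT2A and MT1G are shown because these genes were the metallothioneins that passed the call threshold in some comparison, and because their likeness bears on how well reads can be assigned. Each was read from GENCODE 29 transcripts (GRCh38) and has 186 bases, with the codons TGC and TGT for cysteine in capitals.
MT1X: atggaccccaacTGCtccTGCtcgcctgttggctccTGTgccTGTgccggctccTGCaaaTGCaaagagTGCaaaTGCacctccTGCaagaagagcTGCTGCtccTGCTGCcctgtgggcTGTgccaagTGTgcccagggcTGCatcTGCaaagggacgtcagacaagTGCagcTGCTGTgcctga
MT2A: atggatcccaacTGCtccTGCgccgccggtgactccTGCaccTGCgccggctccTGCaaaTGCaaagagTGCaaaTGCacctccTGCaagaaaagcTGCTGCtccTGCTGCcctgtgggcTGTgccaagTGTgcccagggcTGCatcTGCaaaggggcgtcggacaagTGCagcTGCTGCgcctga
MT1G: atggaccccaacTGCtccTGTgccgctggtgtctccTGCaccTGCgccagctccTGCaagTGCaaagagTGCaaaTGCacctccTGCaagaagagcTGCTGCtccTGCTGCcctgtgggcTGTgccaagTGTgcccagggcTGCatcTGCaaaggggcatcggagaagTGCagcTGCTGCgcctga
Each of the 3 sequences has 20 cysteine codons among 62 codons, the stop included. MT2A lies at chr16:56608199-56609497 on the plus strand, MT1G at chr16:56666731-56668065 on the minus strand and MT1X at chr16:56682424-56684196 on the plus strand, all with 3 exons. Over the 21 pairs of the 7 metallothioneins, coding sequences were 88.7% to 95.2% identical, with a median of 91.9%. MT2A and MT1G differ at 9 of 186 bases, and MT1X and MT2A at 14. Over whole transcripts, the coding part included, 4.88% of the 50-base stretches of MT2A also occur in a transcript of another gene, against 20.2% for MT1G and 45.1% for MT1X. At 100 bases the shares were 0% for MT2A and MT1G and 19.1% for MT1X, and there the other gene was the annotated transcript AC026461.1. The read length and the way reads were divided between copies are not given in the sources used here, so single metallothioneins, MT1X among them, are uncertain to that extent.

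The values below were taken from the authors' deposited table as log2 fold changes, each followed by ± and a standard error worked out from the deposited p-value. Single samples have no value in it, so the level in each sample, the overlap of groups and the sequencing depth are unknown. Each value rests on 3 samples a group, and the labels do not say whether these were separate cultures, so the errors may measure technical spread alone. A gene is called changed at a deposited adjusted p under 0.05 over all genes. Of 10 chondrocyte markers, SOX9, ACAN, COL11A1 and COL11A2 were measured precisely, whereas COL2A1, the main cartilage collagen, was not (0.58 ± 2.68 for SDF1 over DMSO). Of 5 markers of fibroblasts or dedifferentiated chondrocytes, 4 were measured precisely (COL1A1, COL1A2, COL3A1 and VIM), and THY1 was not. None of 4 markers of blood, endothelial and epithelial cells (PTPRC, PECAM1, CDH5, EPCAM) was measured precisely. In RNA from whole samples, fewer cells of a kind and less RNA per cell cannot be told apart.

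With SDF-1α, MT1X and MT2A were higher than with DMSO. MT1X rose by 0.64 ± 0.09, which is 1.56-fold, with a 95% interval from 0.47 to 0.82. MT2A, the most widely expressed human metallothionein, rose by 0.34 ± 0.10, which is 1.26-fold, with an interval from 0.14 to 0.53. These intervals overlap. MT1G stood at 0.35 ± 0.48, MT1F at 0.33 ± 0.97 and MT1E at 0.59 ± 2.82, and none of the 3 was called. Of the 7 genes with a value, 2 were called, both higher, where 34.7% of 18162 genes were called in either direction, 17.2% higher and 17.5% lower. A smooth trend with transcript length and GC content, fitted on precisely measured genes, gave 0.47 for MT1X, whose transcript has 450 bases, where the 95th percentile of the trend over those genes was 0.203. Without the trend MT1X was at 0.18 ± 0.09 and no longer called. For MT2A the trend depended on the transcript: its value without the trend was 0.35 ± 0.10 with the annotated principal transcript of 786 bases, and 0.04 with a shorter one.

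With SKHS added to SDF-1α, MT1X, MT2A and MT1G were lower, and MT1F and MT1E were not called. MT1X fell by 1.50 on the log2 scale ± 0.09, to 0.353 of its level in SDF1, with a 95% interval from -1.69 to -1.32. MT2A was at -0.98 ± 0.18, which is 1.97-fold lower, with an interval from -1.32 to -0.63. MT1G was at -2.47 ± 0.62, and its interval from -3.69 to -1.26 includes the value of MT1X. MT1F stood at -2.88 ± 1.41 and was not called, and MT1E at -0.09 ± 2.55 was too imprecise to place. Of 7 genes with a value, 3 were called and all 3 were lower, where 32.4% of 18251 genes were called, 15.8% higher and 16.7% lower. The median of the 5 metallothioneins with a value was -1.50, which is the value of MT1X, and that of all genes 0.00. Of those 5 only 2 were measured precisely, so the median does not stand for the family. Among 12028 precisely measured genes, MT1X had the 106th lowest value and MT2A the 416th. The length and GC trend pointed upward for such transcripts here (0.19 for MT1X and 0.09 for MT2A), so that without it the values were -1.69 and -1.07, and -2.67 for MT1G. All 3 were still called without the trend.

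**Figure D1:**
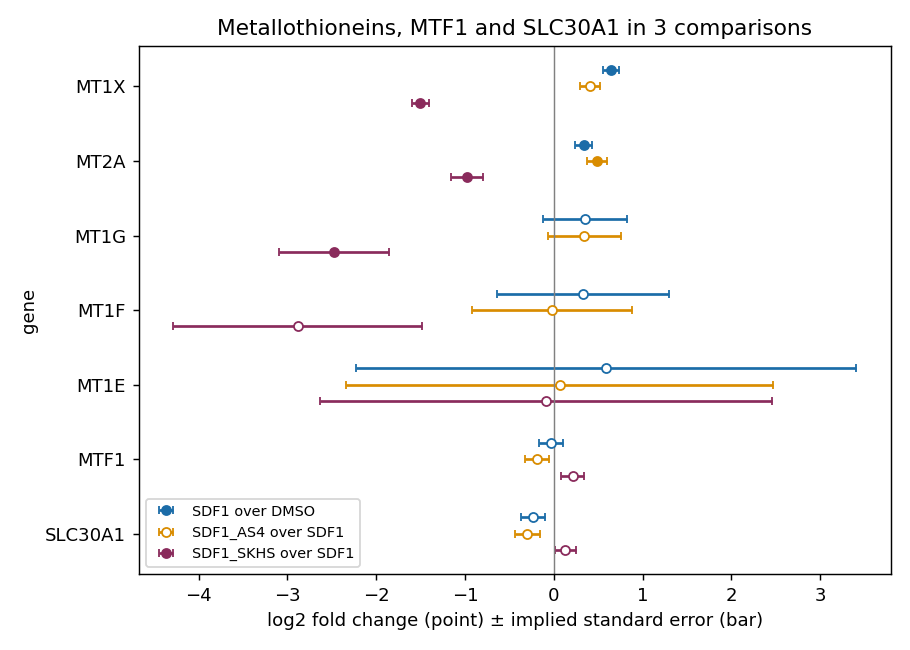
Log2 fold change (x axis) of the 7 genes with a value, as points with bars of 1 implied standard error; filled points are called at an adjusted p under 0.05. MT1X, MT2A and MT1G lie at -1.50, -0.98 and -2.47 for SDF1_SKHS over SDF1, while MTF1 and SLC30A1 stay between -0.30 and 0.21 in all 3 comparisons.

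With astragaloside IV added to SDF-1α, MT2A was the member called. It rose by 0.49 ± 0.11, with an interval from 0.26 to 0.71, and its adjusted p in the authors' deposited table (DESeq2) was 0.0286. MT1X stood at 0.41 ± 0.11 (interval from 0.19 to 0.62). Its DESeq2 adjusted p was 0.0518, just outside the threshold. MT1G stood at 0.35 ± 0.41, MT1F at -0.02 ± 0.90 and MT1E at 0.07 ± 2.40. That made 1 call among 7 genes with a value, where 0.358% of 18133 genes were called, 0.199% higher and 0.16% lower. The trend with transcript length and GC content, fitted on the 11720 precisely measured genes with an annotated length, had a value of 0.35 for MT2A and 0.27 for MT1X here. Both genes were at 0.14 ± 0.11 without it, and neither was called. The 95th percentile of the trend over those genes was 0.242, below the trend value of either gene. With the shorter MT2A transcript, tried after the data were seen, MT2A was at 0.19 ± 0.11 and not called.

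**Figure D2:**
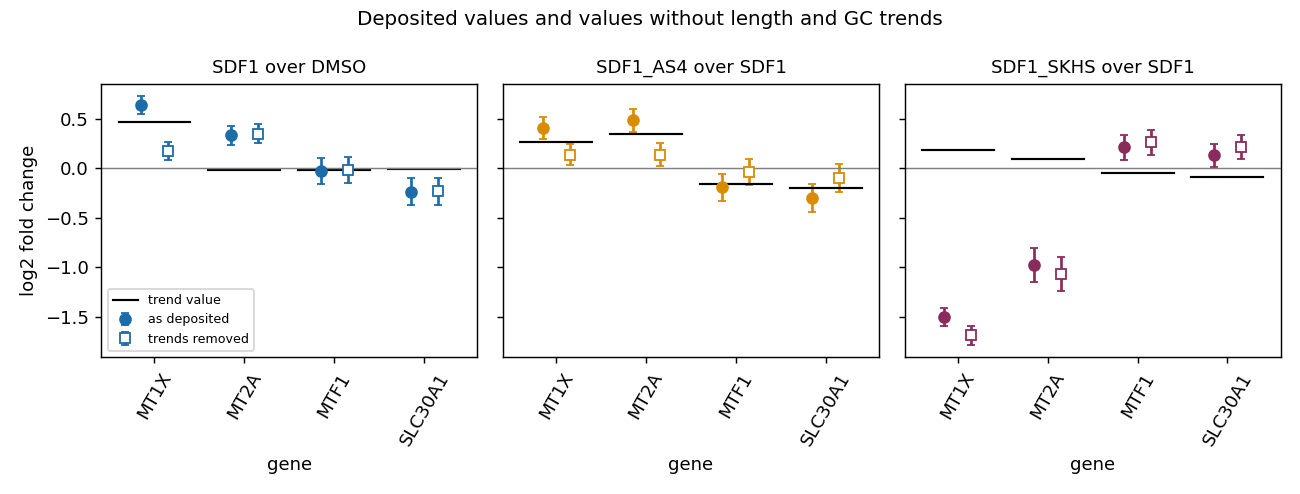
Log2 fold change (y axis) of the 4 precisely measured genes as deposited (filled circles) and without the trend in transcript length and GC content (open squares), with bars of 1 implied standard error; black lines give the trend value of each gene. For SDF1_AS4 over SDF1, MT1X and MT2A move from 0.41 and 0.49 to 0.14, while for SDF1_SKHS over SDF1 they move from -1.50 and -0.98 to -1.69 and -1.07.

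The 3 comparisons share the SDF1 samples, and a chance value in those samples enters each of them. Levels were therefore also set against DMSO and against each other by adding or subtracting the deposited values, with an error that is an upper bound. MT1X was highest in SDF1_AS4, at 1.05 ± 0.14 over DMSO (2.07-fold), followed by SDF1, DMSO and SDF1_SKHS. SDF1_SKHS lay below DMSO by 0.86 ± 0.13, which is 1.81-fold. MT2A had the same order, with 0.82 ± 0.15 for SDF1_AS4 over DMSO and -0.64 ± 0.20 for SDF1_SKHS over DMSO. Of the 3 steps between neighbours in this order, that from SDF1 to SDF1_AS4 was called for MT2A but not for MT1X, and the other steps were called for both genes. Without the length and GC trend, SDF1_AS4 over DMSO was at 0.32 ± 0.14 for MT1X, which was no longer called, and at 0.49 ± 0.15 for MT2A, which was still called. With the shorter MT2A transcript, tried after the data were seen, MT2A was at 0.22 ± 0.15 and not called. MT1G was at -2.12 ± 0.78 for SDF1_SKHS over DMSO. For SDF1_SKHS over SDF1_AS4, the values were -1.91 ± 0.14 for MT1X (3.75-fold lower), -1.46 ± 0.21 for MT2A and -2.82 ± 0.75 for MT1G. For SDF1_AS4 over DMSO 3 of 7 genes were called, 2 higher and 1 lower, where 22.4% of all genes were called, 10.8% higher and 11.6% lower. For SDF1_SKHS over DMSO 3 of 7 were called, all lower, where 37.2% of all genes were called, 18.1% higher and 19.1% lower. For SDF1_SKHS over SDF1_AS4 3 of 7 were called, all lower, where 18.9% of all genes were called, 8.5% higher and 10.4% lower.

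**Figure D3:**
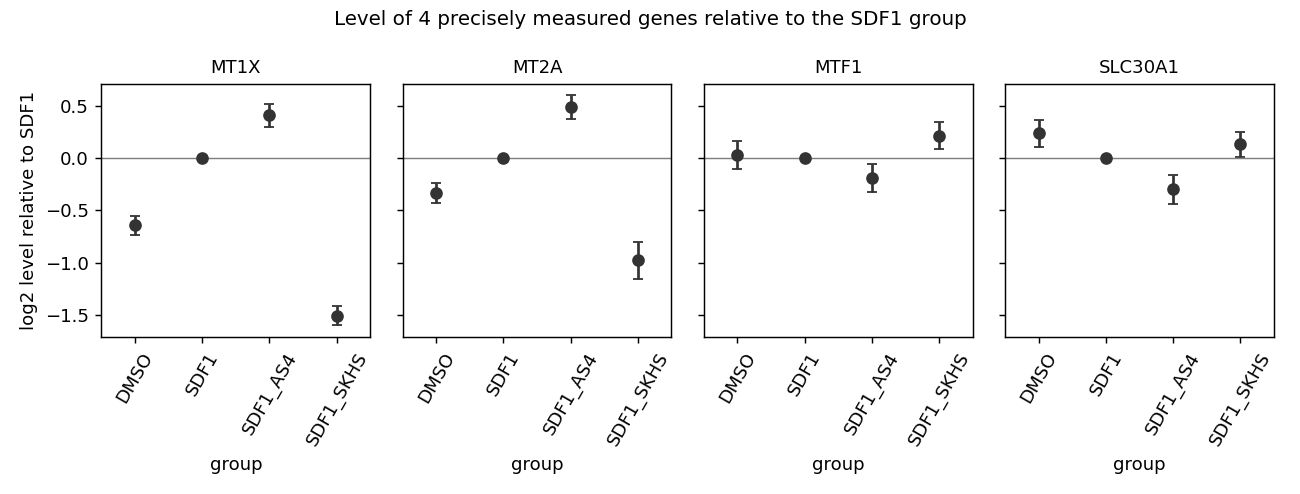
Log2 level of MT1X, MT2A, MTF1 and SLC30A1 in each group relative to SDF1, which is 0 by construction; bars are 1 implied standard error of the comparison with SDF1. MT1X spans from -1.50 in SDF1_SKHS to 0.41 in SDF1_AS4, and MTF1 from -0.19 to 0.21.

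MTF1 and SLC30A1 were called in none of the 3 deposited comparisons. MTF1 (chr1:37809567-37859620, minus strand) stood at -0.03 ± 0.13 with SDF-1α, at -0.19 ± 0.14 with astragaloside IV and at 0.21 ± 0.13 with SKHS. SLC30A1 (chr1:211571568-211578742, minus strand) stood at -0.23 ± 0.13, -0.30 ± 0.14 and 0.13 ± 0.12 in the same order. With SKHS, where MT1X, MT2A and MT1G were lower, the interval of SLC30A1 ran from -0.10 to 0.37 and that of MTF1 from -0.04 to 0.46. A fall of SLC30A1 as large as that of MT1X or MT2A lies outside that interval. For SDF1_AS4 over DMSO, SLC30A1 was at -0.53 ± 0.19 and called, opposite in sign to MT1X and MT2A, and at -0.33 ± 0.19 without the length and GC trend, where it was not called. For SDF1_SKHS over SDF1_AS4 it was at 0.43 ± 0.18 and MTF1 at 0.41 ± 0.19, not called. Both were called when 50% of the smaller implied variance was taken out as due to the shared SDF1 samples. That share was assumed and not estimated from the data.

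Promoter windows, from 250 bases before to 50 bases after the gene start, are shown for MT1X, MT2A and SLC30A1, since MTF1 acts on all of these and their values differed. They are from RefSeq on GRCh38.p14, in which 4 of the 9 genes had a window. The RefSeq start of each of these genes differs from the outer start of its GENCODE 29 gene, from which the gene positions given here were taken, downstream of it for MT1X and MT2A and upstream of it for SLC30A1. Capitals mark the core of the metal response element, searched as TGCACNC or TGCGCNC on both strands.
MT1X, chr16:56682220-56682519, plus strand: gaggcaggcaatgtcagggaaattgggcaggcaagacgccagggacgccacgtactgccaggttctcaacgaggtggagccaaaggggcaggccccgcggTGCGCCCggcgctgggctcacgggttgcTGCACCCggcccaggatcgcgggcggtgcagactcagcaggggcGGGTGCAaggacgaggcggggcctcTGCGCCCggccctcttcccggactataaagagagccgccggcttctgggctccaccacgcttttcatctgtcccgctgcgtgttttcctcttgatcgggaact
MT2A, chr16:56608334-56608633, plus strand: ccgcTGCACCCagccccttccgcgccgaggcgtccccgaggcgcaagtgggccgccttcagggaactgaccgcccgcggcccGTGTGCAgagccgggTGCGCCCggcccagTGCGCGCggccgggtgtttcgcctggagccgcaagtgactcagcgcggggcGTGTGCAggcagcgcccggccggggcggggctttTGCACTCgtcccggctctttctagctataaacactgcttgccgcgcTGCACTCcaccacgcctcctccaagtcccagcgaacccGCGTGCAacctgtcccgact
SLC30A1, chr1:211579112-211579411, minus strand: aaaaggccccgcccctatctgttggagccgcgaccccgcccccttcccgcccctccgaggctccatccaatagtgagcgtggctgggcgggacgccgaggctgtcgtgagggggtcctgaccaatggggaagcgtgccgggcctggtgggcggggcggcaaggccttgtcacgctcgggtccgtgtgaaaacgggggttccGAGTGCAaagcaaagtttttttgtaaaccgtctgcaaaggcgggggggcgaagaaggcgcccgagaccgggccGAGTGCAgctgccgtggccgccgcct
The window of MT2A held 8 cores, that of MT1X 4, that of SLC30A1 2 and that of MTF1 0. Of 35116 promoter windows of the same length, 29.6% held at least 1 core, 8.60% at least 2, 0.601% at least 4 and 0.0199% at least 8. The GC box GGGCGG was found 2 times in each of the metallothionein windows and 6 times in that of SLC30A1. Of all windows, 45.0% held at least 1, 26.7% at least 2 and 2.86% at least 6. In MT1X, 1 GC box overlaps a metal response core. The core of the antioxidant response element, TGACNNNGC, occurred 1 time in each of the 3 windows and in 13.3% of all windows. In MT2A it overlaps an AP-1 site, TGACTCA, which 4.95% of all windows held. These are matches of letters and not measured sites.

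The importers of the ZIP family bring zinc into the cytosol. With SKHS 5 of 14 were lower and none higher, with a median of -0.26, where 16.7% of all genes were lower and 15.8% higher. They were led by SLC39A11 (-0.61 ± 0.08), SLC39A7, which releases zinc from the endoplasmic reticulum (-0.51 ± 0.08), SLC39A13 (-0.33 ± 0.09) and SLC39A8 (-0.34 ± 0.11). SLC39A8 stood at 0.21 ± 0.12 with SDF-1α and at -0.06 ± 0.11 with astragaloside IV. For SDF1 over DMSO, 1 importer rose, the stress-induced SLC39A14 (0.28 ± 0.08), and 1 fell, SLC39A13 (-0.43 ± 0.10), which was not called without the length and GC trend. Among 10 other genes listed as zinc exporters, 2 were lower with SKHS, SLC30A9 (-0.37 ± 0.10) and SLC30A6 (-0.26 ± 0.11). Just 1 was higher, SLC30A4 (0.40 ± 0.16). Of these, 1 was lower without the trend, and 1 lower and 0 higher at an adjusted p under 0.01. For SDF1 over DMSO, SLC30A3 fell by 0.38 ± 0.11 and SLC30A9 rose by 0.32 ± 0.12, where 17.5% of all genes were lower and 17.2% higher. The call of SLC30A3 was lost without the trend, and that of SLC30A9 after centring and at an adjusted p under 0.01. With astragaloside IV, no importer and no exporter was called by DESeq2, and precisely measured importers lay between -0.38 and 0.42. An unadjusted DESeq2 p under 0.05 was found for 5 of 14 importers and 2 of 10 exporters. The share of all genes with an unadjusted p under 0.05 was not worked out. Such counts, here and for the lists below, therefore have no background and cannot be read as an excess.

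Genes that cadmium, arsenite and oxidants are known to induce together with metallothioneins split with SKHS. Of 12 such genes all were called, 8 higher and 4 lower, with 15.8% of all genes higher and 16.7% lower. The higher ones were targets of the transcription factor NRF2. They included SLC7A11, the cystine importer of glutathione synthesis (2.37 ± 0.10), SRXN1, which repairs peroxiredoxins (1.38 ± 0.07), and the quinone reductase NQO1 (1.18 ± 0.07). HMOX1, the haem oxygenase that is induced by metals, rose by 0.63 ± 0.10. The lower ones were heat shock chaperones: HSPA1A (-1.17 ± 0.08), HSPA1B (-1.19 ± 0.09), HSPH1 (-0.41 ± 0.08) and DNAJB1 (-0.34 ± 0.07). Of these, HMOX1, HSPA1B, HSPH1 and DNAJB1 were named after their values were seen. HSPA1A and HSPA1B are near-identical copies and do not count as separate. With SKHS, MT1X and MT2A thus had the sign of the HSP70 genes and the opposite sign to the NRF2 targets. For SDF1 over DMSO, 4 of the 12 were higher, led by TXNRD1, which encodes thioredoxin reductase (0.47 ± 0.08), and 4 were lower, led by OSGIN1 (-0.76 ± 0.14), where 17.2% of all genes were higher and 17.5% lower. Without the length and GC trend 2 were lower. With astragaloside IV DESeq2 called none of the 12, their values lay between -0.38 and 0.36, and 6 had an unadjusted p under 0.05.

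**Figure D4:**
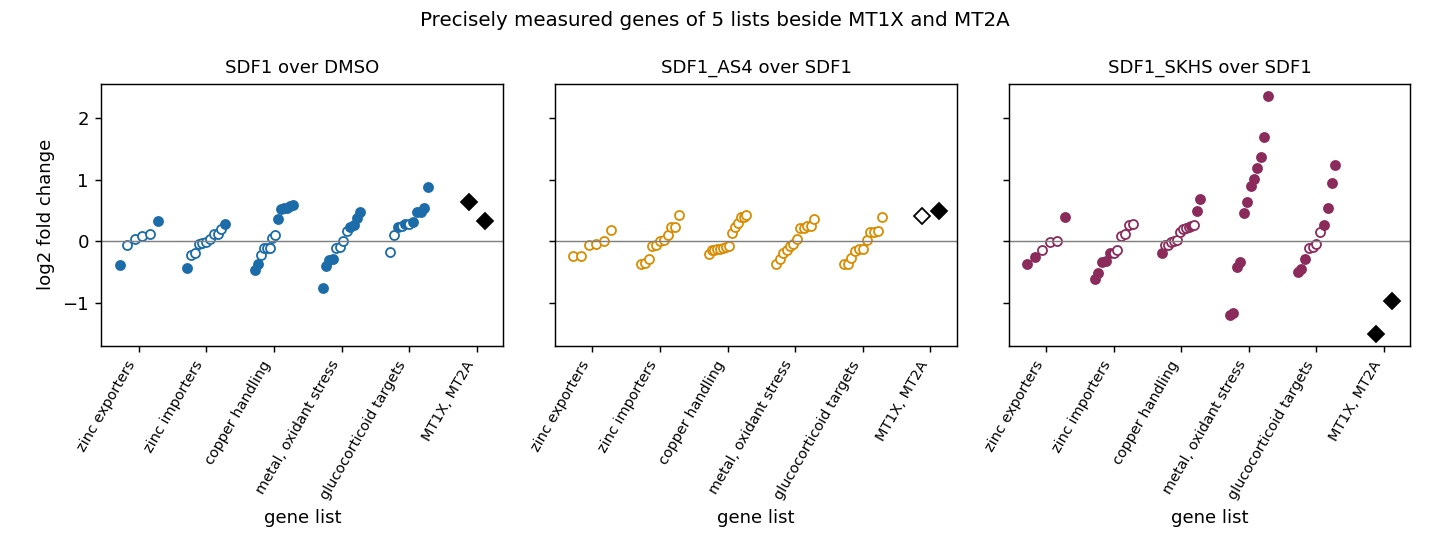
Log2 fold change (y axis) of each precisely measured gene of 5 lists (x axis) in the 3 comparisons, with MT1X and MT2A as diamonds; filled symbols are called. With SKHS the metal and oxidant stress genes run from -1.19 to 2.37, and MT1X and MT2A lie at -1.50 and -0.98.

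Copper genes were listed because metallothioneins also hold copper. With SKHS the copper importer gene SLC31A1 (0.68 ± 0.08) and its family member SLC31A2 (0.48 ± 0.12) rose. They were 2 of the 3 higher genes among 15, and 1 was lower, where 15.8% of all genes were higher and 16.7% lower. The lower one was the metal reductase STEAP3 (-0.19 ± 0.07), not called without the trend or at an adjusted p under 0.01. For SDF1 over DMSO 6 of 15 were higher, among them SOD1, the copper and zinc superoxide dismutase (0.53 ± 0.09), and the copper chaperone ATOX1 (0.53 ± 0.11), and 2 were lower, with 17.2% of all genes higher and 17.5% lower. Of the 15 copper genes 14 were measured precisely there, against 11982 of all 18162 genes, so the shares do not compare like with like. At an adjusted p under 0.01, 1 was lower. Without the length and GC trend 3 were higher and 1 lower. With astragaloside IV DESeq2 called none of the 15, and 5 had an unadjusted p under 0.05.

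Targets of the glucocorticoid receptor, which also acts on metallothionein genes, did not share 1 direction with SKHS. TSC22D3, a glucocorticoid-induced leucine zipper protein (1.25 ± 0.13), CEBPD (0.94 ± 0.13) and ERRFI1 (0.55 ± 0.08) were higher, and DUSP1, a phosphatase of MAP kinases, fell by 0.46 ± 0.08. In all, 4 of 13 were higher and 3 were lower, with 15.8% of all genes higher and 16.7% lower. The 13 include NR3C1, the gene of the receptor itself, which was among the higher ones (0.26 ± 0.08). For SDF1 over DMSO, 7 of 13 were higher and none lower, where 17.2% of all genes were higher and 17.5% lower, with GLUL, glutamine synthetase (0.48 ± 0.08), ERRFI1 (0.55 ± 0.10), NFKBIA (0.48 ± 0.10) and KLF9 (0.89 ± 0.19) at their head. NR3C1 was among these 7 as well (0.31 ± 0.10). The list has a median of 0.27 there, against -0.01 for all genes. With astragaloside IV DESeq2 called none of 12 genes with a value, and 4 had an unadjusted p under 0.05. Of 5 other genes linked to MTF1 in human or mouse cells, 3 were higher with SKHS: GCLC, an enzyme of glutathione synthesis that the stress list also holds (1.02 ± 0.11), CEBPA (0.55 ± 0.16) and PGF, placental growth factor (2.50 ± 0.78), where 15.8% of all genes were higher. The importer SLC39A10, which MTF1 represses in mouse, stood at 0.28 ± 0.15 with SKHS and was not called. Of these 5 genes DESeq2 called none with SDF-1α or with astragaloside IV, and 1 had an unadjusted p under 0.05 in each. With SDF-1α, 1 was called lower after centring and when errors up to 0.5 were kept, and 1 higher and 1 lower without the trend.

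The starts of MT2A and MT1X, the outermost of the 7 metallothioneins, lie 74.2 kb apart on chromosome 16. Genes nearby are described beside them, and a change of the region as a whole was not tested. Of 28 genes that start within 1 Mb of the cluster, 5 were higher and 6 lower with SKHS, with a median of 0.06, where 15.8% of all genes were higher and 16.7% lower. At an adjusted p under 0.01, 3 were lower. The nearest precisely measured genes on either side were BBS2, a gene of the primary cilium, at -0.25 ± 0.10, and the nuclear pore gene NUP93 at -0.35 ± 0.07, both called. HERPUD1, a gene of the unfolded protein response in the same window, rose by 0.84 ± 0.09, and DOK4 rose by 0.78 ± 0.14. None of the 17 precisely measured neighbours fell as far as MT2A. For SDF1 over DMSO 6 of 27 neighbours with a value were higher and 2 were lower, where 17.2% of all genes were higher and 17.5% lower, among them NLRC5, which drives MHC class I genes (-0.96 ± 0.11), and ARL2BP (0.65 ± 0.09). With astragaloside IV DESeq2 called none of 27 neighbours with a value, and 2 had an unadjusted p under 0.05.

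**Figure D5:**
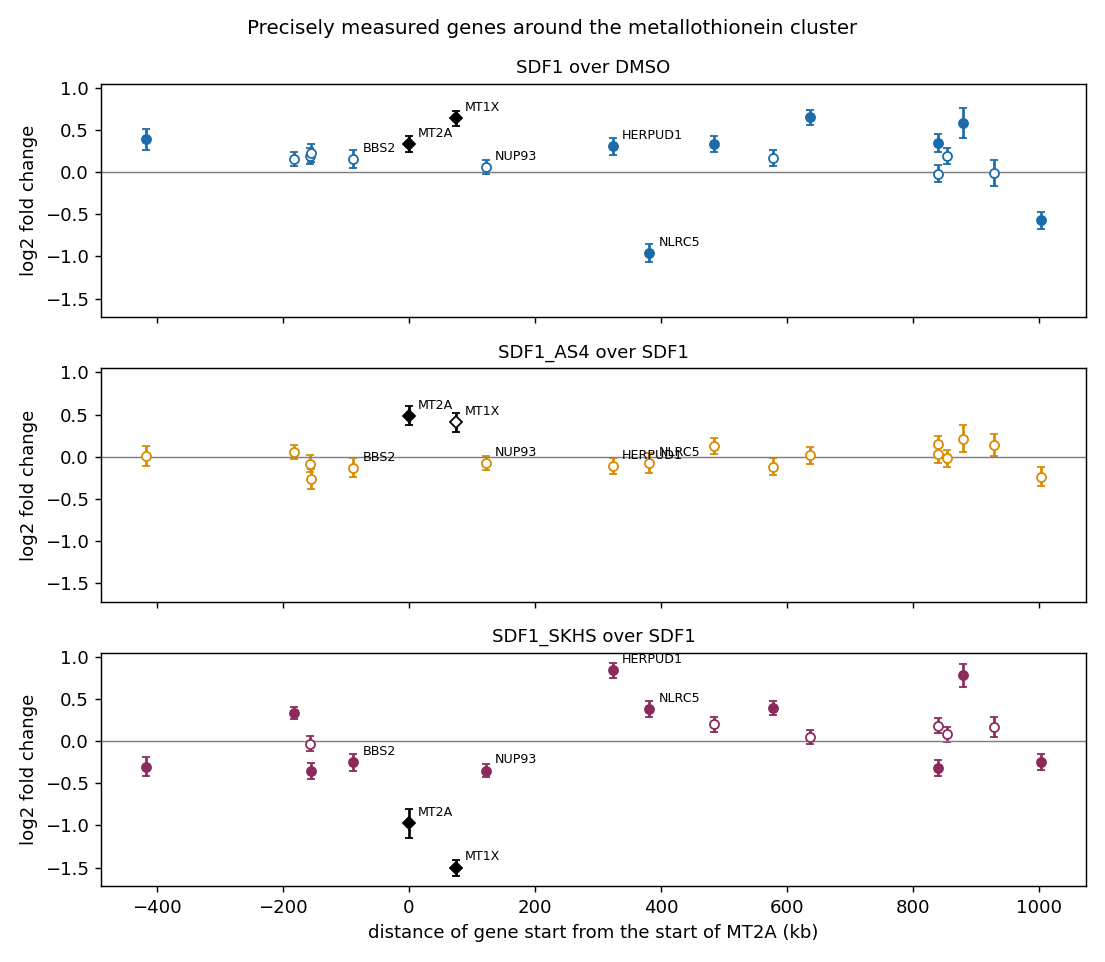
Log2 fold change (y axis, bars of 1 implied standard error) of precisely measured genes against the distance of their start from that of MT2A in kb (x axis), with metallothioneins as black diamonds and called genes filled. For SDF1_SKHS over SDF1, MT2A and MT1X at -0.98 and -1.50 lie below every neighbour drawn, the nearest of which are BBS2 at -0.25 and NUP93 at -0.35.

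Other metallothionein genes gave little. Of the 13 looked for, 4 were listed, and DESeq2 called none, with 0 at an unadjusted p under 0.05 in any comparison. MT1B stood at -0.62 ± 1.12 with SDF-1α, 1.71 ± 0.88 with astragaloside IV and -1.49 ± 1.49 with SKHS. MT3, a metallothionein best known from the brain, stood at 2.52 ± 2.57, -0.34 ± 1.83 and -1.06 ± 1.98. MT1H had no value in the SKHS comparison, and for SDF1_AS4 over SDF1 MT1H and MT1HL1 had the same value of 1.03 ± 4.08, which 195 genes share to the last digit.

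The genes whose 3 deposited values lay nearest to the profile of MT1X and MT2A were NUDT18, DHRS2, CBR3, PTTG1 and UBE2S, out of 11768 genes measured precisely in every comparison. The profile was the mean of the 2 genes, which was 0.49 with SDF-1α, 0.45 with astragaloside IV and -1.24 with SKHS. Likeness was the straight-line distance over these 3 values, 0.184 for NUDT18 and 0.287 for UBE2S. DHRS2, a short-chain dehydrogenase, had 0.35 ± 0.10, 0.38 ± 0.10 and -1.14 ± 0.09. CBR3, a carbonyl reductase, had 0.36 ± 0.15, 0.25 ± 0.15 and -1.13 ± 0.14. PTTG1, the securin of mitosis, had 0.42 ± 0.09, 0.28 ± 0.10 and -1.04 ± 0.08.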

How the data were processed

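RNA-seq of 12 samples in 4 groups of 3 was compared by the authors. Bowtie2 2.2.5, RSEM 1.2.12, DESeq2 1.4.5 and GRCh38.p13 are named without roles, per the submitters' processing notes. The deposited log2 fold changes, p-values and q-values cover 19215 genes and 3 comparisons, and DESeq2 is the source of the p-values per the file headers. No depth or value per sample was given, so arithmetic on these values was the only analysis possible. Log2 fold changes were read as second-named over first-named group: all 1576 values of genes missing in another comparison fell on the side this needs. The q-values equal a Benjamini-Hochberg adjustment of the p-values (largest difference 1.29e-14). The implied standard error is the size of the log2 fold change over the normal quantile of p, which assumes a Wald test, and whether fold changes were shrunk is not given in the sources used here. 

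The 3 further comparisons were sums or differences of deposited values, with both implied variances added. Length and GC came from GENCODE 29 principal transcripts (95.8% of symbols matched), and trends were natural splines with 5 knots fitted on precise genes. Calculations were tested on simulated data. Members, lists and tests were chosen with earlier results of these data known. All 9 members are named, with at most 4 called genes a list and comparison, and the 5 genes nearest in profile. NR3C1 and the genes said to be named after their values were seen are outside this rule. Python 3.11.15, numpy 2.4.6, scipy 1.17.1, pandas 2.3.3 and matplotlib 3.10.9 were used.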

Additional observations from a re-analysis of the deposited data

How the results depend on the processing

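No paired analysis was possible because the table holds no value per sample, and for the same reason leaving out replicates, a count model and another normalization were not run. The count of called members moved as follows, the cause not being tested unless given. A change from 3 calls to 2 was treated as no move. Such changes included SDF1_SKHS over SDF1 when kept to genes with errors of 0.5 or less, where MT1G dropped out. They also included SDF1_AS4 over DMSO at an adjusted p under 0.01, where the call of SLC30A1 was lost. Under Student's t with 4 degrees of freedom, whose heavier tails can only lower counts, 2 calls became 1 for SDF1 over DMSO, 1 became 0 for SDF1_AS4 over SDF1, 3 became 1 for SDF1_SKHS over SDF1 and for SDF1_SKHS over DMSO, and 3 became 0 for SDF1_AS4 over DMSO and SDF1_SKHS over SDF1_AS4. MT1X was the call left for SDF1_SKHS over SDF1. For SDF1_AS4 over SDF1 the count was 0 at an adjusted p under 0.01, 2 when the test was kept to genes whose error was 0.5 or less, 2 after centring and 0 with length and GC trends removed. With those trends removed it was 1 for SDF1 over DMSO and 1 for SDF1_AS4 over DMSO. With the assumed share of SDF1 variance removed it was 5 for SDF1_SKHS over SDF1_AS4. Signs turned without the trends for imprecise genes: MT1G to -0.11 for SDF1 over DMSO and -0.073 for SDF1_AS4 over DMSO, MT1F to -0.15 for SDF1_AS4 over DMSO, and MT1E to 0.049 for SDF1_SKHS over SDF1_AS4 and -0.25 for SDF1_AS4 over SDF1. Over all genes, 65 calls for SDF1_AS4 over SDF1 became 190 when kept to the genes with errors up to 0.5, 36 without trends, 7 at an adjusted p under 0.01 and 0 with the t distribution, and with the latter 6301 became 1092 for SDF1 over DMSO and 5918 became 1350 for SDF1_SKHS over SDF1. The transcript of MT2A used for its trend was varied after the data were seen. Depth is unknown, and MT1E, MT1F and MT1G were too imprecise to compare with each other.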
